A study of Mus musculus with 2 samples.

Results

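Macrophages that meet IL-4 can adhere to each other and fuse into multinucleated giant cells, and the 10 genes described here encode molecules of that adhesion and fusion: E-cadherin (Cdh1), the catenins Ctnna1, Ctnnb1 and Ctnnd1, the fusion receptors Dcstamp and Ocstamp, Cd47 and its receptor Sirpa, the hyaluronan receptor Cd44, and the transcription factor Nfatc1. The genes were chosen by name, and their probes were taken from 39429 gene probes on the array by the RefSeq accession printed beside each probe. All 10 genes were found, with 15 probes in all, among 20656 genes that could be named. RNA came from bone marrow-derived macrophages (BMDMs), which are cells of the marrow of femur and tibia grown for 7 days with the growth factor M-CSF, from male Crif1 f/f mice aged 8 weeks. The floxed Crif1 allele was shared by both conditions, and no Cre driver is named for these arrays. BMDMs were left untreated or were treated with IL-4 for 18 h, and the sources used here give no IL-4 dose for the arrays. Each condition was hybridised to 1 single-colour Agilent array, so no difference below was tested between conditions and no p-value is given.

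E-cadherin is a transmembrane protein that binds E-cadherin on a neighbouring cell. Inside the cell its tail is held by β-catenin (Ctnnb1) and p120 catenin (Ctnnd1), and α-catenin (Ctnna1) links that complex to actin. In macrophages exposed to IL-4, E-cadherin is a known marker of alternative activation and takes part in homotypic contact. Fusion itself needs the multi-pass membrane proteins DC-STAMP (Dcstamp) and OC-STAMP (Ocstamp), while CD47 and SIRPα recognise each other on apposed cells and CD44 binds hyaluronan and osteopontin. NFATc1 is the transcription factor that drives the related fusion of osteoclast precursors.

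The labelled cell type was checked by its markers. All 9 macrophage markers with a probe were well above background with and without IL-4, Csf1r and Adgre1 among them. After IL-4, 3 of the 9, Cd14, Fcgr1 and Mertk, were at least 2-fold lower, at log2 differences of -1.42, -1.23 and -1.14. Fcgr1 and Mertk lay inside 2-fold, at -0.91 and -0.82, with spike-in scaling, and Mertk also with median scaling. At a 1.5-fold cutoff 5 of the 9 were lower and 0 higher, with Lyz2 at -0.70 and Itgam at -0.71 at its brightest probe. The dimmer Itgam probes were at -0.24 and -0.27. The median of the 9 markers was -0.70, while Csf1r was at 0.09 and Adgre1 at 0.17. All 8 fibroblast and stromal markers were detected on both arrays too, with Col1a2 at intensities of 233342 untreated and 234332 after IL-4. That was brighter than Csf1r, at 146026 and 166510. The summed scaled level of the stromal list was 361 untreated and 328 treated, beside 330 and 287 for the macrophage list. Of the 8 stromal markers 0 differed by 2-fold, though Thy1, at -0.95, just passed it under another scaling. Of 6 mast cell and basophil markers 5 were detected, and Cpa3, a mast cell protease, was at least 3.51-fold lower after IL-4, with a log2 bound of -1.03 under normexp background correction, while Mcpt8 was at -0.74 and Kit at -0.20; the summed level of the list was 0.679 untreated and 0.418 treated. Of 7 dendritic cell markers 4 were detected and 3, Flt3, Xcr1 and Clec9a, were not. The brightest was Siglech, with intensities of 29067 and 31659 at its brighter probe, while its other probe was detected on neither array. Itgax, which macrophages also express, was at 0.72, or 1.04 with spike-in scaling. The dimmer Zbtb46 was at -0.52 and Ccr7 at -0.09. Of 6 lymphocyte markers 2 were detected, with Cd3e at -0.31. The share of those cells in the signal of each gene below was not tested. In RNA from a whole culture, more cells that express a gene and more RNA per cell cannot be told apart.

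After IL-4, 2 of the 10 genes were at least 2-fold higher, Cdh1 and Ocstamp, and none was at least 2-fold lower. Cdh1 was at least 17.9-fold higher and Ocstamp was 7.77-fold higher, while the other 8 genes lay within 2-fold of the untreated signal. A signal counted as detected when the scanner software marked it as well above background, and 14073 named genes were detected on 1 array or both. Of these, 3.06% passed the same 2-fold cutoff upward and 3.35% passed it downward. The 10 genes were picked with earlier results of these arrays known, so their share is a description. At a 1.5-fold cutoff Cd44 joined them, beside 6.36% of all genes higher and 8.95% lower, and at a 3-fold cutoff Cdh1 and Ocstamp were still called, beside 1.14% of all genes higher and 0.945% lower. Differences are the log2 intensity of the IL-4 array minus that of the untreated array, after each array's 75th percentile was subtracted. The error given as ± is the scanner software's own error of both intensities combined, which does not hold the spread between cultures. For bright probes that error is close to a fixed share of the signal, so the same ± 0.20 recurs below.

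**Figure D1:**
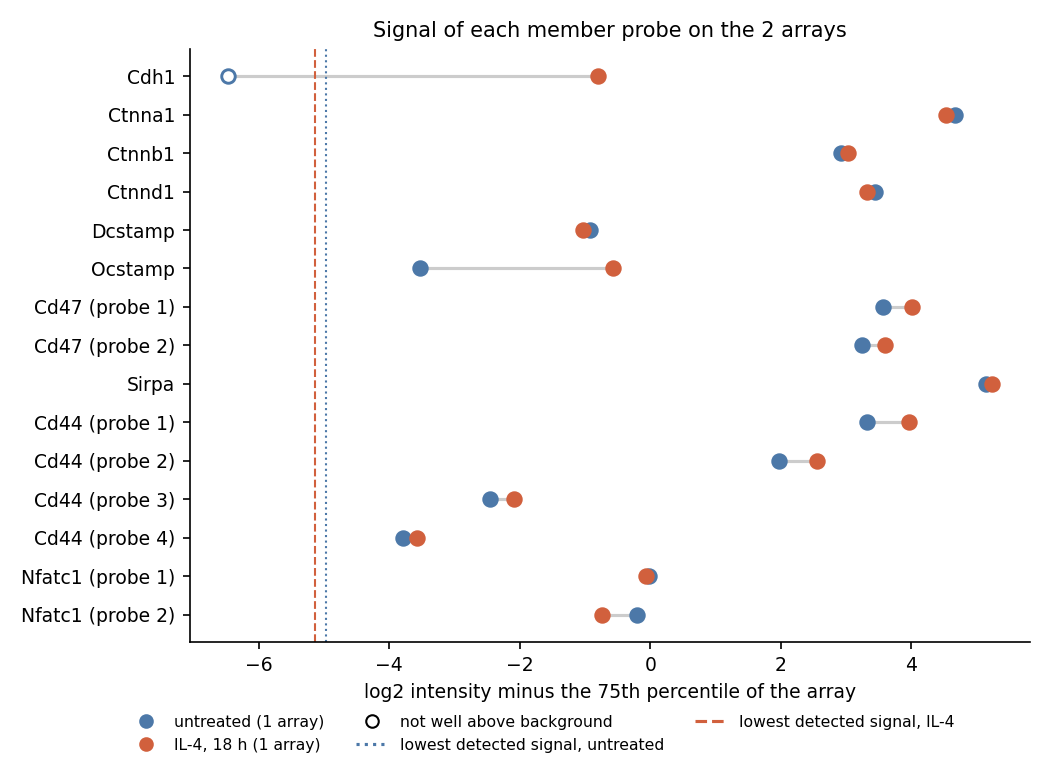
Scaled log2 intensity (x axis) of the 15 probes of the 10 genes (y axis, probes of a gene numbered from bright to dim) on the untreated array and the IL-4 array; open circles are signals not detected and vertical lines mark the lowest signal well above background on each array. Cdh1 and Ocstamp have wide gaps between the arrays, and the untreated Cdh1 signal lies below the lowest detected signal.

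The probe for Cdh1 was printed in 10 spots, where the 14 other probes had 1 spot each. On the untreated array the background-subtracted intensity of its 9 unflagged spots was 7.41 at the lowest, 9.88 at the median and 13.7 at the highest, and 0 of them were well above background. The tenth spot, flagged by the software as an outlier and left out, read 15.1. After IL-4 its 10 spots lay at 515, 561 and 609.6 at the lowest, the median and the highest, and all 10 were well above background. Every IL-4 spot was thus brighter than every untreated spot, and the spots of an array lay close together next to the gap between the arrays. Before background subtraction the median pixel intensity of the probe was 75 untreated and 649 treated, against 57 for the negative controls on both. Because the untreated signal was not well above background, the difference is a lower bound, set against the lowest detected signal of that array at an intensity of 29.2. That bound was a log2 difference of 4.16, and the log2 difference between the 2 signals as measured was 5.67. The software put the error of the untreated intensity at 68.9% of its value.

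**Figure D2:**
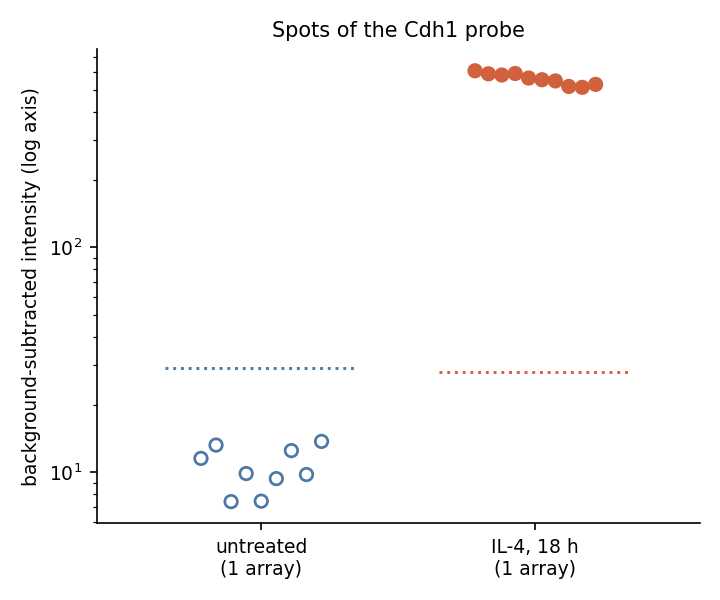
Background-subtracted intensity (y axis, log scale) of each unflagged spot of the Cdh1 probe, 9 untreated and 10 treated, spread sideways for clarity; open circles are not well above background, and dotted lines mark the lowest intensity well above background on the array. The untreated spots lie between 7.41 and 13.7 and the IL-4 spots between 515 and 609.6.

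Epithelial markers were read beside Cdh1, which is best known from epithelium. Of 12 markers, 7 were well above background on neither array, Krt8, Krt5, Krt14, Ocln and Grhl2 among them. Epcam and Cldn4 were detected without IL-4 but not with it. Cldn4 was at least 2.32-fold lower at its brighter probe, though its bound lay inside 2-fold with quantile normalization, spike-in scaling and normexp. Its other probe had a log2 bound of -0.53, and Epcam had one of -0.74. Krt18, a keratin, was at least 12.3-fold higher after IL-4, with intensities of 39.9 untreated and 524 treated, and with normexp background correction its bound was 1.97 on the log2 scale. Krt19 was at a log2 difference of -0.23. The summed scaled level of the list was 0.624 untreated and 0.930 treated, and without Krt18 that of the other 11 was 0.580 untreated and 0.396 treated. The part of epithelial cells in the value of Cdh1 was not tested.

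Among all named genes 13 had a larger rise or bound than Cdh1. The genes closest to it in log2 difference over the 2 arrays, each measured on both, were the VEGF receptor Flt1 at 4.21, the AP-1 factor Batf3 at 4.23, the cytokine signalling inhibitor Socs1 at 4.37 and the ribonuclease Rnase2a at 3.91. Since the value of Cdh1 is a bound, its place among them is not settled.

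The catenins that hold the tail of E-cadherin were detected on both arrays, and their signals were nearly equal with and without IL-4. Ctnna1 had an intensity of 23269 without and 22753 with IL-4, a log2 difference of -0.13 ± 0.20. Ctnnb1, which also carries Wnt signals to the nucleus, had intensities of 6913 and 7983 and a log2 difference of 0.11 ± 0.20. Ctnnd1, which keeps cadherins at the cell surface, had intensities of 9920.1 and 9822 and a log2 difference of -0.11 ± 0.20. All 3 differences lay within the software's error. Each catenin was read from 1 probe in 1 spot. The sign of Ctnna1 and Ctnnd1 turned to positive with median and spike-in scaling, as did those of Dcstamp and Nfatc1 below. Nfatc1 was positive with no scaling too, at 0.06.

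The nearest relatives of these genes were counted from lists of the adhesion pathway. Of 10 other cadherins on the array 7 were detected, and 0 of them differed by 2-fold or more. N-cadherin (Cdh2) had a log2 difference of -0.24 and VE-cadherin (Cdh5) one of 0.02. The measured cadherins lay between -0.40 and 0.05, so none came near the bound of Cdh1. Of 17 other catenins and partners of the adherens junction, 14 were above background and 1 was at least 2-fold higher. It was Ctnnd2, δ-catenin, a p120 relative best known from neurons, with intensities of 50.5 and 419 and a log2 difference of 2.95 ± 0.29. Its other probe gave 2.90, and with normexp the value of the gene was 1.78. Jup, plakoglobin, was well above background on neither array, and vinculin (Vcl), which reinforces junctions under tension, had a log2 difference of -0.02.

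The 7 known transcriptional repressors of Cdh1 were all well above background on both arrays, and 0 of 7 differed by 2-fold. Their log2 differences ran from -0.26 to 0.39, with Zeb2 at 0.33 and Snai2 at -0.25. Of the E-cadherin receptors and the proteases that shed it, 3 were measured, the proteases Adam10 at 0.08 and Adam15 at 0.08 and the integrin chain Itgb7, part of a receptor for E-cadherin, at -0.55. In the complex that degrades β-catenin 7 of 8 genes were measured, and their log2 differences at the brightest probe lay between -0.13 and 0.18. Apc was at -0.03 there, while its dimmer probe, detected without IL-4 alone, had a bound of -1.42. The β-catenin target Axin2 was well above background on neither array. Of the partners and targets of β-catenin, 11 were measured on both arrays and 0 of 11 differed by 2-fold, and 2 more, Tcf7 and Sp5, were detected on 1 array and gave bounds inside 2-fold, which leave their size unsettled. Among the brightest were Ccnd1 (cyclin D1) at 0.41 and Pygo2 at 0.21.

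**Figure D3:**
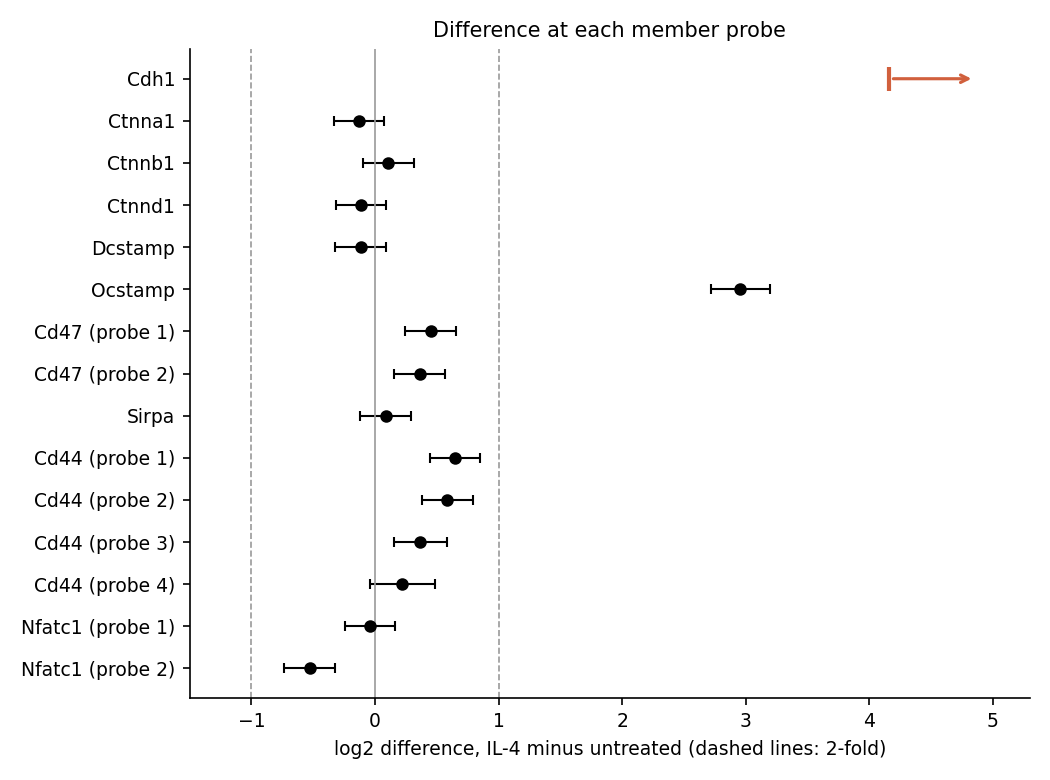
Log2 difference, IL-4 minus untreated (x axis), at each of the 15 probes (y axis); points carry the combined software error of both intensities, the arrow marks the lower bound of Cdh1 and dashed lines mark 2-fold. Ocstamp at 2.96 and the bound of Cdh1 at 4.16 lie beyond the 2-fold line, and all other probes lie inside it.

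The fusion receptors Ocstamp and Dcstamp gave unlike values. Ocstamp had an intensity of 79.2 without and 659 with IL-4, and it was well above background on both. Its log2 difference was 2.96 ± 0.24, and 32 named genes had a larger rise or bound. Before background subtraction its pixel intensity was well apart from the negative controls, at 148.5 untreated and 737 treated. Dcstamp, the gene most often tied to osteoclast and giant cell fusion, had intensities of 483 and 478 and a log2 difference of -0.12 ± 0.21. Dcstamp was therefore level within the software's error while Ocstamp was several-fold higher after IL-4. Each was read from 1 probe in 1 spot. Probes printed in 10 spots, with a like mean signal over both arrays, show the spread of the spots' log2 differences. Its median SD was 0.094 near Ocstamp and 0.062 near Dcstamp. The untreated Ocstamp signal was dimmer than that mean. Near the dimmest Cd44 probe, at intensities of 65.9 and 82.3, the median SD was 0.20.

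Around these receptors, 23 cofactors of macrophage fusion were all well above background. Of these 1 was 2-fold or more higher and 1 as far lower. The higher gene was Ccl2, the chemokine MCP-1, which was 8.49-fold higher with intensities of 3825 and 34803. The lower gene was Elmo1, which with Dock proteins activates Rac during engulfment, at a log2 difference of -1.29 ± 0.30 and intensities of 104 and 45.5. With normexp background correction Elmo1 was at -0.83 and with spike-in scaling at -0.97, inside 2-fold. The 2 brightest cofactors were level, with Lgals3 (galectin-3) at 0.05 and Anxa1 (annexin A1) within 0.01 of 0. At a 1.5-fold cutoff 2 of the 23 were higher, Ccl2 and Atp6v0d2, and 1 was lower, Elmo1. Atp6v0d2 was at 0.64, and its other probe at 0.86. Inside 1.5-fold, Adam8 was at 0.55 and Adam9 at 0.57, while Adam12 was at -0.39 (genes named after their values were seen). In the DAP12 pathway, whose adaptor Tyrobp and receptor Trem2 signal for fusion competence, 0 of 8 genes differed by 2-fold, and Tyrobp was at -0.28 and Trem2 at -0.03.

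**Figure D4:**
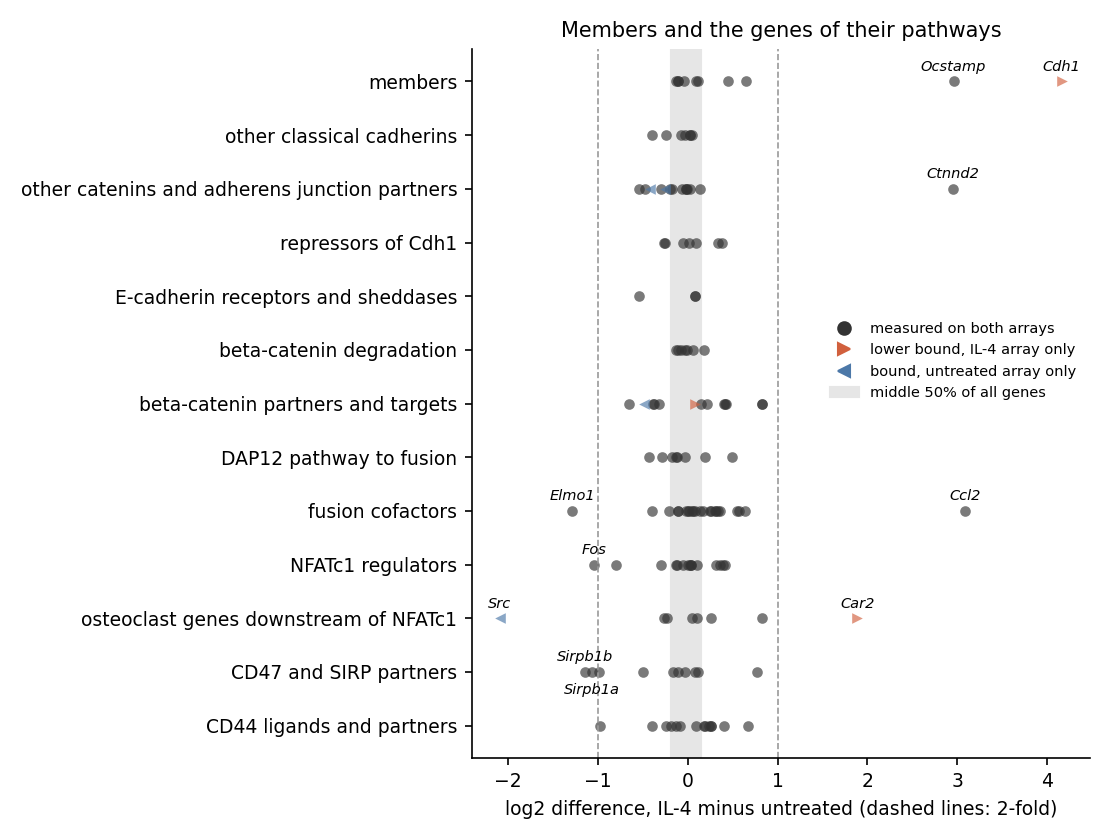
Log2 difference, IL-4 minus untreated (x axis), of the 10 genes in the top line and of 12 lists of pathway genes below (y axis); circles were measured on both arrays, triangles are bounds, the grey band holds the middle 50% of all named genes measured on both arrays, and genes beyond 2-fold are named. Of 129 pathway genes above background, 3 lie beyond the upper dashed line and 5 beyond the lower one.

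CD47, the ligand on the target cell, and SIRPα, its inhibitory receptor on macrophages, were bright on both arrays. At the brighter Cd47 probe the intensity was 10851 untreated and 15884 treated, a log2 difference of 0.45 ± 0.20. The other Cd47 probe had intensities of 8653.5 and 11903 and a log2 difference of 0.36 ± 0.20. Both probes of Cd47 were thus higher after IL-4 by more than the software's error and by less than 2-fold. Sirpa had intensities of 32365 and 36807.5, a log2 difference of 0.09 ± 0.20, within that error. Of 10 partners of this axis 0 were at least 2-fold higher and 2 were at least 2-fold lower, Sirpb1a at -1.07 and Sirpb1b at -1.15, which are activating relatives of SIRPα. Their sequences are close enough that a probe for one may read the other, and both lay inside 2-fold with median and spike-in scaling, as did Sirpb1a with no scaling. Thrombospondin 1 (Thbs1), a soluble CD47 ligand, was at -0.11.

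Cd44, the receptor for hyaluronan, was read by 4 probes, and all 4 were higher after IL-4. The brightest had intensities of 9108 without and 15263 with IL-4, a log2 difference of 0.65 ± 0.20. The second had 3580.5 and 5758, a log2 difference of 0.59 ± 0.20. The third had 166 and 229, a difference of 0.37 ± 0.21, and the dimmest had 65.9 and 82.3, a difference of 0.22 ± 0.27. The differences thus became smaller with the signal of the probe, and the last lay within its error. The 4 probes spanned 0.42, and 13.9% of the 3292 named genes with several probes measured on both arrays had a wider span. Those genes were not matched in number of probes, and a span can only grow as probes are added. Of 14 measured ligands and partners of CD44, 0 differed by 2-fold at the brightest probe. Moesin (Msn), which ties CD44 to actin, was at 0.18 and osteopontin (Spp1) at 0.24. The probes of Vcan were apart, at 0.40, at -0.08 and, for the dimmest, detected without IL-4 alone, at a bound of -1.20.

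Promoter sequences from RefSeq (GRCm38.p6) were matched by symbol for Ctnnb1, Ctnnd1, Cd47 and Cd44. None was matched for the other members, Cdh1 and Ocstamp among them, so their promoters were not searched. The 250 bases before the start of Cd44 and of Cd47 are shown because both genes were higher at every probe after IL-4, by less than 2-fold. The stretch was searched for the spaced palindrome that STAT6, the factor IL-4 activates, prefers, which is TTC, then 4 bases of any kind, then GAA, and which reads the same on both strands. In the Cd44 stretch, on the minus strand of GRCm38.p6 at chr2:102901666-102901915, the capitals mark a match that begins 211 bases before the start. In the Cd47 stretch, on the plus strand at chr16:49855404-49855653, there is no match. The shorter form with 3 bases between TTC and GAA was searched too and was found in neither. The stretches of Ctnnb1 and Ctnnd1, and another stretch of Cd47, held no match of either form.
Cd44: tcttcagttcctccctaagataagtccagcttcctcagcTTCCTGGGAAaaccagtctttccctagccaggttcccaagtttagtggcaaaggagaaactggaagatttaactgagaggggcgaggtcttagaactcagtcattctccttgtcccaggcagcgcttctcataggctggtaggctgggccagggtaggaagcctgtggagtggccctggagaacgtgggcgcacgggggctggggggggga
Cd47: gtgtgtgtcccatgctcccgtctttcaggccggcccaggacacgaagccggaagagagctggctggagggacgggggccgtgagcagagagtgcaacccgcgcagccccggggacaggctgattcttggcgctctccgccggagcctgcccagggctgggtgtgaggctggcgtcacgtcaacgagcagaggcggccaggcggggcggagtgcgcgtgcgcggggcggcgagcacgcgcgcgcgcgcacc
Of 32851 promoter stretches of this length 5.85% hold the longer form and 7.02% the shorter one. A match is a run of letters and does not show that a factor binds there.

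Nfatc1 was read by 2 probes that stand for different RefSeq transcripts. The brighter one had intensities of 902 without and 939 with IL-4, a log2 difference of -0.04 ± 0.20. The other had 794 and 589.8, a log2 difference of -0.53 ± 0.21. The first probe was level and the second lower, by a gap of 0.49 where the software's errors combine to 0.29. Of genes with several probes, 10.6% had a wider span, whatever their number of probes. Of 15 measured regulators of NFATc1, 0 were at least 2-fold higher and 1 was at least 2-fold lower at the brightest probe. It was the AP-1 subunit Fos at -1.04 ± 0.21, which lay inside 2-fold with median scaling, spike-in scaling, no scaling and normexp. Nfatc2 was at -0.80, while its dimmer probe, detected without IL-4 alone, had a bound of -1.13. Irf8, a repressor of the osteoclast programme, was at -0.12 and Id2 at 0.39. Among osteoclast genes that NFATc1 drives, 8 of 9 were above background, 1 was higher and 1 lower. Carbonic anhydrase 2 (Car2), detected with IL-4 alone, was at least 3.69-fold higher, though with normexp its bound was 0.61 on the log2 scale, inside 2-fold. Src, detected without IL-4 alone, was at least 4.26-fold lower, and with normexp its bound was -1.09 on the log2 scale. The bright genes of this list lay within 2-fold. Tartrate-resistant acid phosphatase (Acp5) was at 0.25 and cathepsin K (Ctsk) at -0.26, each just beyond the software's error of 0.20. The less bright integrin chain Itgb3 was at 0.82, and its other probe at 0.63. The calcitonin receptor Calcr was detected on neither array.

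Over the 12 lists together, 3 of 129 pathway genes above background, 2.33%, were higher by 2-fold or more and 5, 3.88%, lower by as much, close to the shares over all genes. Their median log2 difference, over the 123 measured on both arrays, was 0.01, beside -0.01 for all genes. Under other scalings Myc, Lgr4, Itgb3 and Qpct passed 2-fold upward, with the highest at 1.15, and Fyb and Has2 passed it downward, with Has2 at -1.04 (genes named after their values were seen). The median of the 9 genes of the set measured on both arrays was 0.09.

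Values were read again with 6 other ways to scale the arrays. Median and spike-in scaling moved the median of all genes measured on both arrays from -0.01 to 0.20 and 0.31, since a new scale moves every gene together. Scalings that subtract a constant from each array leave a gene's distance to that median unchanged by construction. Only quantile normalization and cyclic loess could change it. Over all 7 scalings that distance was 2.97 to 3.08 for Ocstamp, 0.58 to 0.66 for Cd44 and 0.38 to 0.46 for Cd47. For the bound of Cdh1 it was 4.18 to 4.49. Ctnna1, Ctnnd1, Dcstamp and Nfatc1 lay between -0.22 and -0.02 relative to that median. With normexp, a background correction that lifts dim signals, the bound of Cdh1 was 2.59 and Ocstamp was at 2.02, both still beyond 2-fold.

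**Figure D5:**
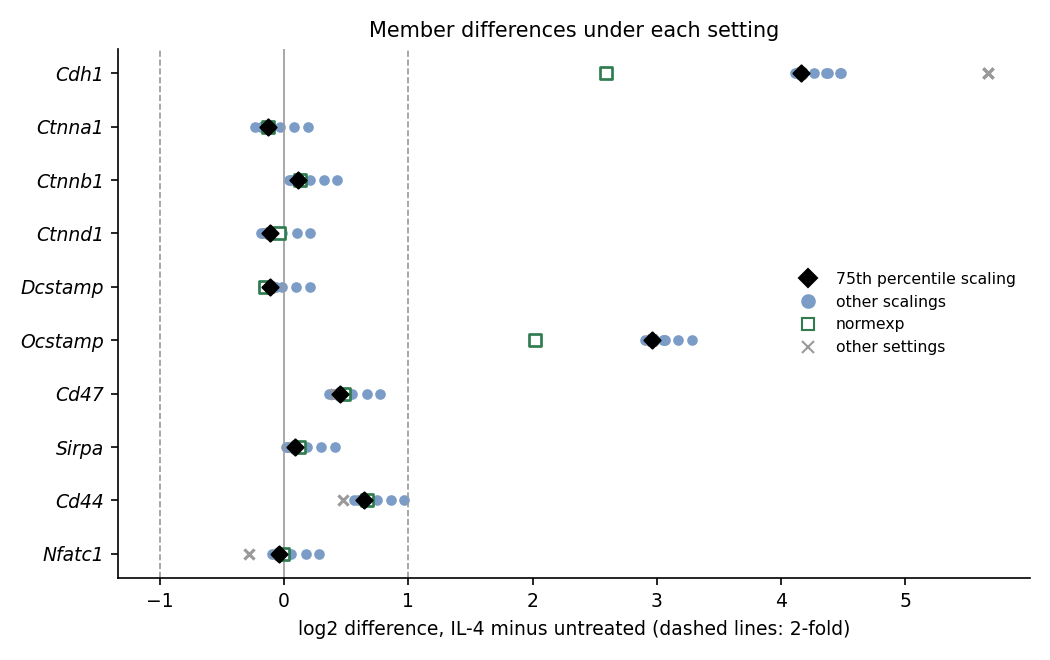
Log2 difference, IL-4 minus untreated (x axis), of each of the 10 genes (y axis) with 75th percentile scaling, with the 6 other scalings, with normexp and with the remaining settings; dashed lines mark 2-fold, and most values of Cdh1 are lower bounds. Cdh1 and Ocstamp lie beyond 2-fold at every value drawn, and no other gene reaches it.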

How the data were processed

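RNA of untreated and of IL-4-treated BMDMs, 1 array each, was labelled with Cy3. The authors deposited the output of Agilent Feature Extraction 10.10.1.1. Its spot intensity had background and spatial trend removed by the software, with no scaling from array to array. A table of log2 values that the authors processed, deposited too, served as an alternative. Its column medians were 0.161 and 0.016, its centring is not given in the sources used here, and its differences match those of the scanner values at all 15 probes. The array design was annotated on mm9; genes were named through RefSeq accessions from a GRCm38.p6 table, which named 27229 of 39424 probes.

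Outlier-flagged and control spots were left out, the log2 intensities of a probe's spots were averaged, and each array's 75th percentile was subtracted. A probe counted as detected when most of its spots carried the flag for well above background. A gene was read from its brightest probe. A probe detected on 1 array gives a bound, set on the other array against its own signal or the lowest detected one, whichever was higher, and a probe detected on neither gives no fold. A gene counted as changed at 2-fold. The number of arrays limits the precision, since 1 array per condition allows no test. The members, lists and named genes were chosen with earlier results of these data known: all members, list genes beyond 2-fold with up to 2 of the brightest others, the 4 genes nearest to Cdh1 in difference, and the markers. Simulated data were used to test the script that counts changed genes. Only bright probes were changed there and none was detected on 1 array alone, so the rule for bounds was not tested. Alternatives were other scalings, normexp with an offset of 50 on the median pixel intensity, the processed values, flagged spots kept, the median over probes, other filters on dim probes, and cutoffs of 1.5-fold and 3-fold. Scripts ran in Python 3.11.15 with pandas 2.3.3 and numpy 2.4.6, and in R 4.3.3 with limma 3.58.1.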

Additional observations from a re-analysis of the deposited data

How the results depend on the processing

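With 1 array per condition no replicate could be left out, and depth here means signal over background, which limits Cdh1 to a bound. No paired analysis was possible because the arrays number 1 per condition. The count of 2 members at least 2-fold higher held in every setting at 2-fold or 3-fold but 1, and at 1.5-fold it was 3. With genes detected on both arrays alone it was 1, Ocstamp, since Cdh1 is then left out by construction. The count of 0 lower members held in all settings run. Of 119 values of single members under the alternatives, 97 stayed within the software's error of the main value. The other 22 moved by more, most of them with median or spike-in scaling. Part of the 97 stayed by construction. Filters on dim probes and the processed values leave a gene detected on both arrays at or near its main value. Flagged spots concern the Cdh1 probe alone, and the median over probes cannot move a gene with 1 probe. Without bounds Cdh1 was at 5.67, in the authors' processed values as well. With the median over probes Nfatc1 was at -0.29.

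The count over all genes moved more. Against 431 higher genes as reported, spike-in scaling gave 756, normexp 250, no filter on dim probes 881, the 1.5-fold cutoff 895 and the 3-fold cutoff 160. Against 472 lower genes as reported, the counts were 299 (median scaling), 309 (quantile normalization), 239 (spike-in scaling), 153 (normexp), 870 (processed log2 values), 2077 (no filter), 184 (detected on both arrays), 1260 (1.5-fold) and 133 (3-fold). Filters and cutoffs change these counts by construction. The processed log2 values were read without bounds, and median and spike-in scaling move every difference by a constant, so those counts move by construction too. For the other settings the cause was not tested. Higher genes made up 47.7% of all changed genes as reported, 67.7% with median scaling, 64.9% with quantile normalization, 59.7% with cyclic loess, 57.8% with no scaling, 76.0% with spike-in scaling and 62.0% with normexp. The share was lower, at 42.2%, with the 75th percentile over probes detected on both arrays, at 40.3% in the processed log2 values and at 29.8% with no filter on dim probes, while it was 61.7% over genes detected on both arrays.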
